A study of Mus musculus with 28 samples.

Results

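The genes described here are 31 genes of sterol and fatty acid synthesis, taken as a list of symbols that covers the mevalonate steps, the steps from squalene to cholesterol, the sterol-responsive regulators, the synthesis of fatty acids and the enzymes that desaturate and elongate them. A gene was measured by the probe sets annotated to its symbol alone, and the probe set with the highest mean stood for the gene. By that rule 30 of the 31 had a value, out of 18193 genes in the series, and all 30 passed the filter on dim genes that left 13926 genes for testing. Acat2, a cytosolic acetyl-CoA acetyltransferase, was not analysed here.

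The samples were 10 medulloblastomas, tumours of the cerebellum, 6 gliomas, and 12 normal brain tissues of mice, each measured on 1 Affymetrix Mouse 430 2.0 array. All tumours and 11 of the normal brains came from hGFAP-Cre mice homozygous for loss of p53 (p53-/-), in which the Cre recombinase is driven by a human GFAP promoter, active in neural progenitors and glia, so that an allele cut by Cre is lost only in cells of that origin. Rictor, a subunit of the kinase complex mTORC2, was not targeted in 3 medulloblastomas, 1 glioma and 1 normal brain (p53-null only), was heterozygous (Rictor+/-) in 2 medulloblastomas, 4 gliomas and 5 normal brains, and was lost (Rictor-/-) in 5 medulloblastomas, 1 glioma and 5 normal brains. The remaining normal brain, Z2, was wild type. Arrays are called by the code in their labels, a letter with a number. The labels give the tumour pieces a tumour content of at least 70%, and they do not state whether each array stands for its own animal. The p-values therefore measure only how far these arrays spread, and part of that spread may be technical.

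Rictor itself had intensities of 68.8 to 235.8 in the 5 Rictor-null medulloblastomas, 222.7 to 276.8 in the 5 others, 144.4 in the Rictor-null glioma and 192.5 to 375.7 in the other gliomas. In normal brain the Rictor-null arrays (213.3 to 443.9) overlapped the heterozygous ones (250.5 to 388.6). The sources used here do not say whether its probe set lies in the deleted stretch. The arrays also differed in cell type markers, and a bulk sample cannot tell fewer cells of a type from less RNA per cell. Normal brains B2, C5 and Z2 were rich in Gabra6, which cerebellar granule neurons express as part of a GABA receptor, up to 4918 in Z2 against a median of 9.40 over the 12. The actin 3' to 5' signal ratio, which rises as RNA degrades, had medians of 2.57 in medulloblastoma, 2.21 in glioma and 3.47 in normal brain, within a range of 1.49 to 6.21.

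As background, cholesterol is built from acetyl-CoA through mevalonate, isoprenoid diphosphates, squalene and lanosterol, and fatty acids are built from the same acetyl-CoA by a carboxylase and a synthase before desaturases and elongases shape them. The transcription factors SREBP-1 and SREBP-2 (genes Srebf1 and Srebf2) activate most of these genes when sterols are scarce, and Insig proteins hold them back in the endoplasmic reticulum when sterols are plentiful. The brain makes its own cholesterol because circulating lipoproteins do not cross the blood-brain barrier, and myelinating oligodendrocytes and astrocytes are its main producers in the adult.

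Promoters of 25 of the 31 genes were found in the RefSeq promoter table (build GRCm38.p6), and the 250 bases upstream of each listed start were searched on both strands for the sterol regulatory element, to which SREBPs bind, and for the boxes of the factors that commonly work with it. The element, searched as TCACNCCAC, was in 1 of the 25 promoters, that of Hmgcs1, and in 1.22% of the 27025 genes with a promoter. The Hmgcs1 stretch is shown because it alone held these letters, in capitals, 137 bases upstream of the start (chr13:119690189-119690247, plus strand):
Hmgcs1: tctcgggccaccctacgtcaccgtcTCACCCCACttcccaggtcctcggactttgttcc
The letters CCAAT were in 20 of the 25 (80.0%, against 37.5% of all genes and 39.5% of protein-coding genes), the GC box GGGCGG in 19 (76.0%, against 35.4% and 45.8%), and the E-box CACGTG in 5 (20.0%, against 6.86% and 7.61%). These shares describe windows of 250 bases, and no match says only that the letters were not in the window.

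Both a CCAAT box and a GC box, without overlap, stood in 16 of the 25 promoters. For both boxes together, their spacing and their orientation no share over other genes is given here. These counts therefore do not show a trait particular to these genes. The 9 genes in which the closest such pair spanned at most 35 bases are shown on the strand of the gene, to place the boxes against each other. This limit was chosen after the values were known. Capitals mark the 2 boxes, read as CCAAT or its reverse complement ATTGG and as GGGCGG or its reverse complement CCGCCC:
Hmgcs1 (chr13:119690294-119690344, plus strand): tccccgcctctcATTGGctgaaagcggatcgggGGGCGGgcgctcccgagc
Mvk (chr5:114444084-114444136, plus strand): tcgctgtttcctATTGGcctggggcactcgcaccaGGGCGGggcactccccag
Idi1 (chr13:8885525-8885577, plus strand): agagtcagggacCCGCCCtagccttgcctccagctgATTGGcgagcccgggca
Hsd17b7 (chr1:169969354-169969399, minus strand): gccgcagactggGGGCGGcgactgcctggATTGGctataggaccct
Ebp (chrX:8193528-8193579, minus strand): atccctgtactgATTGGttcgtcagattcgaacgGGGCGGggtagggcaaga
Dhcr7 (chr7:143830153-143830211, plus strand): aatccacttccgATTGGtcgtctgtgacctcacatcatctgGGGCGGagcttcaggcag
Srebf1 (chr11:60210472-60210513, minus strand): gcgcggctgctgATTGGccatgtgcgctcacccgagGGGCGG
Insig1 (chr5:28071171-28071212, plus strand): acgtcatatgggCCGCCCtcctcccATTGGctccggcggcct
Acss2 (chr2:155517929-155517986, plus strand): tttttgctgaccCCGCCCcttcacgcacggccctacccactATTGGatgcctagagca
The CCAAT letters read ATTGG on the strand of the gene in all 9, as they did in all of the 16 pairs but that of Cyp51, while the order of the boxes and the strand of the GC box differed among the 9. RefSeq listed 3 starts for Dhcr7 and 3 for Srebf1, and each stretch above belongs to one of them. Of these 9 genes 7 were called in at least 1 of the tissue comparisons below, and Idi1 and Insig1 were not, a share near the 76.4% of all genes tested. A match of letters is a description and shows no binding.

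**Figure D1:**
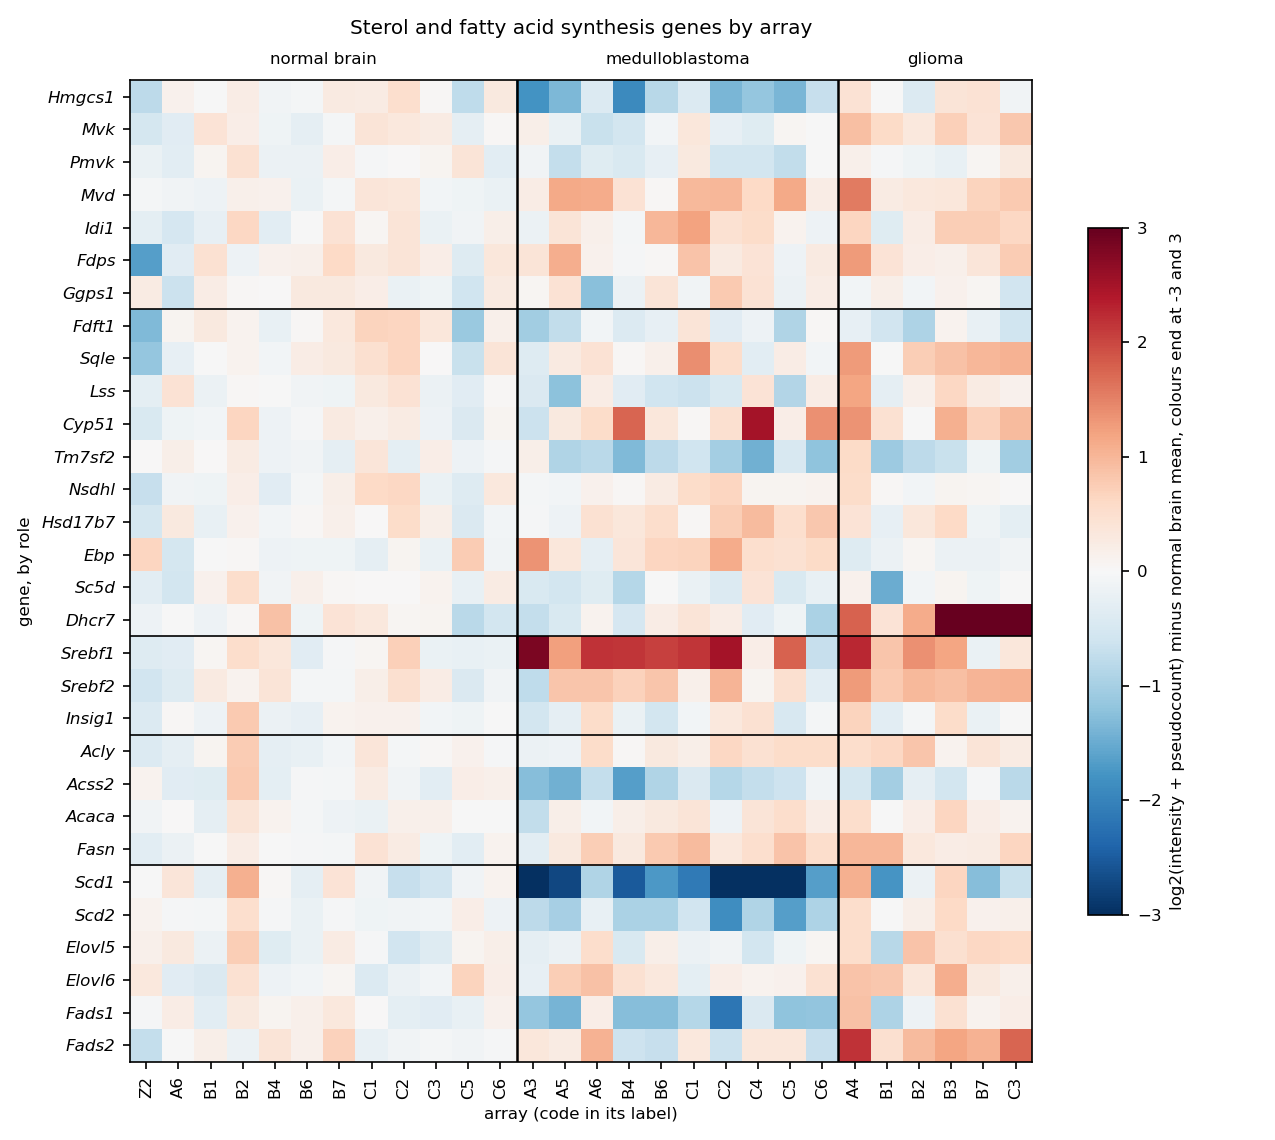
Each cell is the log2(intensity + 6.3) of 1 gene on 1 array minus the mean of that gene over the 12 normal brains, with genes in rows by role and arrays in columns by tissue, and colours end at -3 and 3. Scd1 and Hmgcs1 are blue across the medulloblastomas, Dhcr7 and Fads2 are red across the gliomas, and Srebf1 is red in most medulloblastomas.

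Medulloblastoma was compared with normal brain first. The genes did not move as one. Of the 30, 6 were higher in medulloblastoma, 8 were lower and 16 were not called (limma, Benjamini-Hochberg adjusted p under 0.05, two-sided), where 64.4% of all tested genes were called, 32.3% higher and 32.1% lower. The median log2 difference was -0.02 over the 30 genes and 0.01 over all genes tested. The largest falls were those of Scd1, a desaturase, and Hmgcs1, a mevalonate gene, and the largest rise was that of Srebf1, a regulator.

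The 7 mevalonate and isoprenoid genes divided into 1 higher, 2 lower and 4 not called. Hmgcs1, the enzyme that makes HMG-CoA, had intensities of 417.6 to 1188 (median 656) in medulloblastoma and of 921 to 2239 (median 1676) in normal brain. Medulloblastomas A6 (1188), C1 (1187) and C6 (970.7) reached into the normal range, whose lower end was set by Z2 and C5, and the other 7 were below it. The log2 difference was -1.23 ± 0.19 (SE; n = 10 and 11, since Z2 adds nothing to the difference; limma adjusted p = 2.8e-06), a 2.35-fold lower level, and Hmgcs1 was lower in 7 of the 7 medulloblastomas whose code also occurs on a normal brain array. For codes A6, B4 and C1 the title prefix of the medulloblastoma (YZ or YZ2) differs from that of the normal brain, so a code pair may not be 1 animal. Counts of code pairs here and below reuse the arrays of the fits, and no share over all genes is given for them. They describe the arrays and add no separate support. Mvd, the decarboxylase that ends the mevalonate branch, ran from 48.0 to 111.2 (median 85.85) in medulloblastoma against 40.2 to 61.6 (median 44.0) in normal brain. It was higher by 0.56 ± 0.16 on the log2 scale (limma adjusted p = 0.0032) and higher in 7 of 7 code pairs, with B6, C6 and A3 inside the normal range. Pmvk, phosphomevalonate kinase, was lower by a small amount (-0.35 ± 0.14, limma adjusted p = 0.027), and that call ended when medulloblastoma B4, medulloblastoma C5 or normal brain C5 was left out (-0.30 to -0.33). The kinase Mvk, the isomerase Idi1 and the prenyl synthases Fdps and Ggps1 were not called, with differences of -0.22 to 0.36.

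Among the 10 genes from squalene to cholesterol, 3 were higher, 2 were lower and 5 were not called. Tm7sf2, a sterol reductase, had a median of 42.25 in medulloblastoma (26.1 to 92.1) and of 80.05 in normal brain (65.0 to 106.2). A3 alone, at 92.1, lay inside the normal range. The difference was -0.97 ± 0.18 on the log2 scale (limma adjusted p = 2.8e-05). Tm7sf2 was lower in 7 of 7 code pairs, which followed from the ranges, since A3 shares no code with a normal brain. Ebp, the sterol isomerase, was higher by 0.67 ± 0.16 (limma adjusted p = 0.00050), from 132.9 to 419.9 (median 237.4) against 109.0 to 276.5 (median 148.1). The ranges overlapped widely, and the highest normal values were those of C5 and Z2. Cyp51, the lanosterol demethylase, ran from 111.0 to 1023 (median 235.9) against 128.1 to 282.2 (median 169.9). Only 3 medulloblastomas stood above the normal range, C4 at 1023, B4 at 609.9 and C6 at 467.1. The difference of 0.71 ± 0.28 (limma adjusted p = 0.026) fell to 0.50 without C4 and to 0.54 without B4, and neither was called. The other probe sets of Cyp51 were also called higher, by 1.72 and 0.84 (limma adjusted p = 2.4e-05 and 0.0029). Hsd17b7, a sterol ketoreductase, was higher by 0.39 ± 0.16 (limma adjusted p = 0.034) at 144.5 to 320.3 (median 228.8) against 109.8 to 238.1 (median 165.1). It was higher in 7 of 7 code pairs, yet leaving out any of 7 arrays ended its call (0.32 to 0.37). These were medulloblastomas B6, C2, C4 and C6 and normal brains B1, C5 and C6. Of the other probe sets of Hsd17b7, those at 0.43 and 0.35 were called (limma adjusted p = 0.049 and 0.040), and that at 0.23 was not. Lss, lanosterol synthase, was lower by the brightest probe set (-0.48 ± 0.19, limma adjusted p = 0.029), but its other probe sets gave 0.31 and 0.25, neither called, and leaving out medulloblastoma C1 or C5 or normal brain A6 or C2 ended the call (-0.42 to -0.45). Squalene synthase (Fdft1) was at -0.44 ± 0.20, and Sqle, Nsdhl, Sc5d and Dhcr7 were at -0.32 to 0.10; none of these 5 was called.

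The 3 regulators differed from one another. Srebf1, which encodes SREBP-1, had a median of 1263 in medulloblastoma (176.2 to 2086) and of 267.1 in normal brain (222.2 to 477.7). Of the 10 medulloblastomas, 8 stood above every normal brain, from 694.4 in A5 to 2086 in A3, while C4 (331.6) and C6 (176.2) did not. The difference was 1.53 ± 0.34 on the log2 scale (limma adjusted p = 0.00027), a 2.89-fold higher level, and it kept its call when any 1 array was left out. Srebf2, which encodes SREBP-2, ran from 28.5 to 114.4 (median 82.6) against 33.6 to 76.1 (median 53.7), and the difference of 0.38 ± 0.19 was not called. Its second probe set was called in the opposite direction (-0.69, limma adjusted p = 0.0015), so no direction is given for Srebf2 in medulloblastoma. Insig1, the endoplasmic reticulum anchor, ran from 249.1 to 545.9 (median 337.6) against 278.8 to 646.5 (median 359.2) and was not called (-0.17 ± 0.16).

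Of the 4 genes that supply acetyl-CoA and build fatty acids, Fasn was higher, Acss2 was lower and 2 were not called. Fasn, fatty acid synthase, had a median of 652.6 in medulloblastoma (362.4 to 890) and of 449.5 in normal brain (362.3 to 621.7), a difference of 0.47 ± 0.14 (limma adjusted p = 0.0057), and was higher in 7 of 7 code pairs. Acss2, which makes acetyl-CoA from acetate, had a median of 140.6 (74.1 to 227.9) against 238.9 (191.8 to 431.5). C6 alone reached into the normal range, and the difference was -0.84 ± 0.17 (limma adjusted p = 0.00016). ATP citrate lyase (Acly, 0.29 ± 0.13) and acetyl-CoA carboxylase (Acaca, 0.14 ± 0.13) were not called.

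Of the 6 desaturases and elongases 3 were lower, 0 were higher and 3 were not called. Scd1, a stearoyl-CoA desaturase that makes monounsaturated fatty acids, had intensities of 30.8 to 445.3 (median 130.4) in medulloblastoma and of 515.9 to 1739 (median 805.8) in normal brain. Every medulloblastoma was below every normal brain; Scd1 and Scd2 were the 2 of the 30 genes whose ranges did not meet in this comparison, which held for 16.9% of all genes tested (8.87% higher, 8.04% lower). The log2 difference for Scd1 was -2.77 ± 0.37 (limma adjusted p = 3.1e-07), a 6.82-fold lower level, and its dimmer second probe set fell by 0.74. Scd2, the desaturase that is bright in brain, had a median of 2186 (1144 to 3569) against 4060 (3628 to 5978), a difference of -1.01 ± 0.14 (limma adjusted p = 6.3e-07), and its 2 other probe sets fell by 1.60 and 0.89. Fads1, a desaturase of long polyunsaturated chains, had a median of 249.4 (123.9 to 669.4) against 600.0 (461.0 to 721.2). A6 alone, at 669.4, lay within the normal range, and the difference was -1.18 ± 0.21 (limma adjusted p = 1.9e-05). Its partner Fads2 and the elongases Elovl5 and Elovl6 were not called (-0.22, -0.14 and 0.30). Over the 7 code pairs Fads1 and Acss2 were lower in 7 of 7, as Scd1 and Scd2 had to be, since their ranges did not meet. Srebf1, Ebp and Cyp51 were higher in 6, Lss was lower in 6, and Pmvk was lower in 5 with a median of -0.06.

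**Figure D2:**
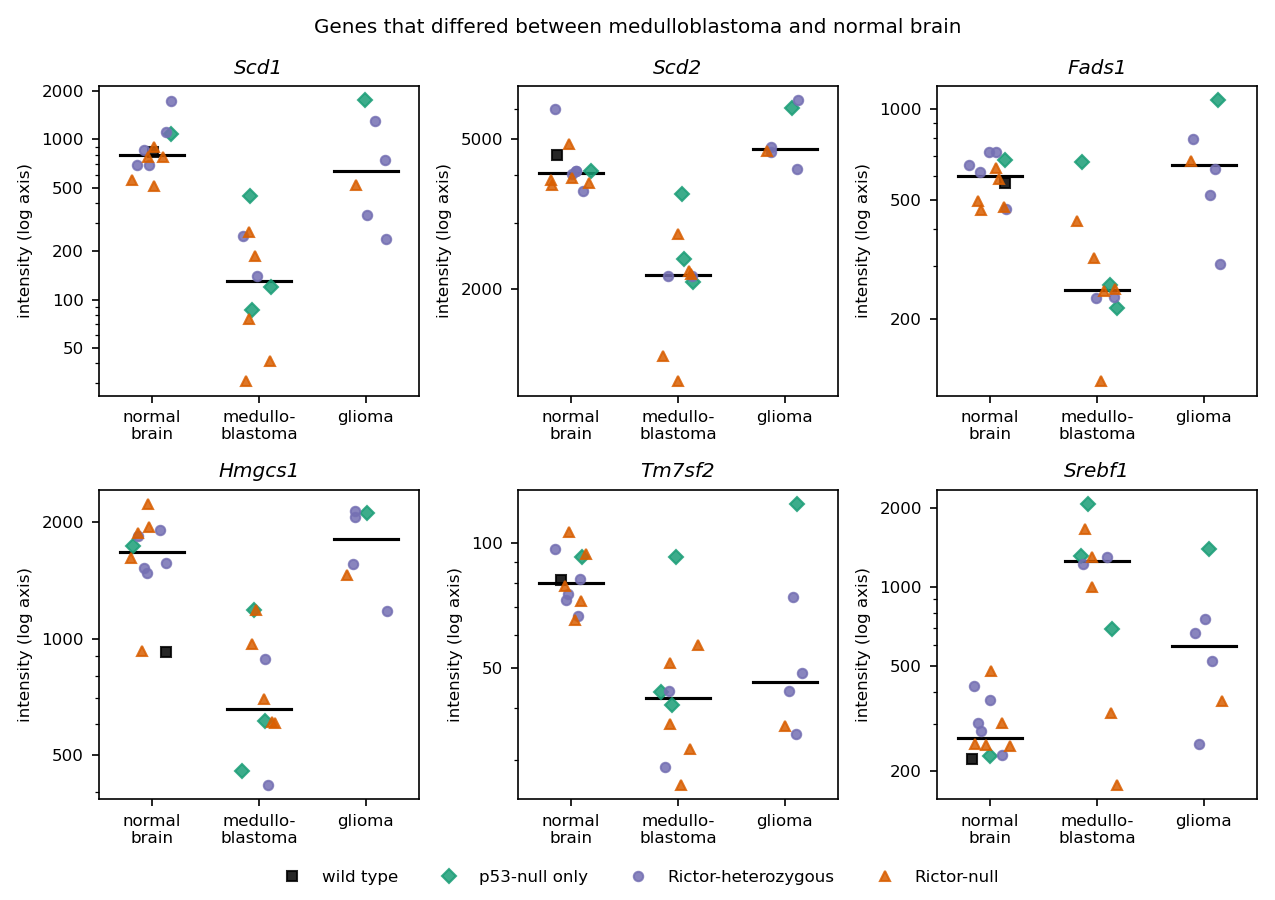
Each point is the intensity of 1 array on a log axis, by tissue and genotype, and the black line is the median of the tissue. Scd1 and Scd2 do not overlap between medulloblastoma and normal brain, Fads1, Tm7sf2 and Hmgcs1 overlap through 1, 1 and 3 medulloblastomas, and Srebf1 has 8 medulloblastomas above every normal brain.

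Cell type markers moved with these groups. All 10 mature oligodendrocyte markers measured were lower in medulloblastoma, and their summed intensity was 398.6 to 4866 (median 1144) against 5658 to 20200 (median 11020) in normal brain. Of 10 astrocyte markers 9 were lower, with sums of 1916 to 10250 (median 3524) against 13540 to 21910 (median 15080). Of 8 mature neuron markers 7 were lower (medians of the sums 2170 and 19150), all 6 proliferation markers were higher (7947 and 102), and 6 of 7 granule lineage markers were higher (9728 and 1102). The granule lineage sums were 8214 to 12050 in medulloblastoma, yet 13940 and 12910 in normal brains Z2 and C5. Forebrain neuron sums were 305.0 in B2, 498.8 in Z2 and 546.7 in C5, against a normal brain median of 1966. The normal brains thus differed in region by these markers, and the part of region was not tested. Of 4 forebrain neuron markers 3 were lower, as were 2 of 4 choroid plexus and 1 of 4 endothelial markers, while 2 of 6 microglial markers were higher and 2 lower and 1 of 8 oligodendrocyte precursor markers was higher and 1 lower. The myelin genes Mog and Mobp had medians of 5.75 and 16.75 in medulloblastoma against 81.0 and 1754 in normal brain. The part of these markers in the differences above was not tested. With every array centred on its median instead, the median of all genes moved to -0.12 and the 30 genes split into 3 higher and 10 lower, Cyp51, Fasn and Hsd17b7 losing their call. Titles carry the prefix YZ or YZ2, whose meaning the labels do not give: within YZ (5 medulloblastomas, 5 normal brains) 2 genes were higher and 4 lower, and within YZ2 (5 and 7) 3 and 9. Of the 13926 genes tested, 5468 were called within YZ and 7763 within YZ2, against 8966 over all arrays. Without normal brains B2, C5 and Z2 the counts were 7 higher and 8 lower.

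Glioma was compared with normal brain next, and here the calls leaned one way. Of the 30 genes 10 were higher in glioma, 1 was lower and 19 were not called, where 54.1% of all genes tested were called, 28.5% higher and 25.6% lower. The median log2 difference was 0.32 over the 30 genes, 23 of them above 0, and 0.05 over all genes tested. This comparison shares the 12 normal brains with the one above.

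Dhcr7, the reductase that makes cholesterol from 7-dehydrocholesterol, had the largest rise. It read 143.7 in glioma B1, 239.5 in B2, 381.7 in A4, 979.5 in B7, 1035 in B3 and 1159 in C3, against 58.8 to 203.1 (median 108.3) in normal brain. B1 alone lay within the normal range, and heterozygous gliomas stood both at the low end (B1) and near the high end (B3). The difference was 2.17 ± 0.35 on the log2 scale (limma adjusted p = 1.1e-05). Of the other 9 genes from squalene to cholesterol, Sqle, squalene epoxidase, was higher by 0.77 ± 0.22 (limma adjusted p = 0.0049), with 294.4 in B1 and 505.6 to 726.3 in the other gliomas against 130.0 to 471.1 in normal brain. Cyp51 was at 0.75 ± 0.32 (limma adjusted p = 0.046) with a median of 318.7 (174.8 to 462.2) against 169.9, and leaving out any of 14 arrays ended its call. These were gliomas A4, B3, B7 and C3, medulloblastomas A5 and B6, and normal brains A6, B1, B4, B6, C1, C3, C5 and C6, with values of 0.52 (without A4) to 0.78. The other probe sets of Cyp51 were called higher too, by 1.34 and 0.97 (limma adjusted p = 0.0022 and 0.0037). Tm7sf2 was the only gene called lower (-0.56 ± 0.20, limma adjusted p = 0.021). It read 34.7 to 73.8 in 5 gliomas and 124.1 in A4, above every normal brain, and its call ended without B1 (-0.47) or without C3 (-0.42). Fdft1, Lss, Nsdhl, Hsd17b7, Ebp and Sc5d were not called (-0.50 to 0.34).

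Of the 7 mevalonate and isoprenoid genes 2 were higher and 5 were not called. Mvk, mevalonate kinase, had a median of 78.95 in glioma (61.6 to 95.5) and of 48.1 in normal brain (31.5 to 66.1), a difference of 0.63 ± 0.16 (limma adjusted p = 0.0016), with B2 alone inside the normal range. Mvd was higher by 0.70 ± 0.18 (limma adjusted p = 0.0020): it read 151.3 in A4 and 56.7 to 86.0 in the other 5 gliomas against 40.2 to 61.6. Hmgcs1, which fell in medulloblastoma, had a median of 1816 in glioma (1182 to 2137), and its difference of 0.07 ± 0.22 was not called.

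Srebf2 was the 1 gene of the 30 whose ranges did not meet between glioma and normal brain, which held for 18.8% of all genes tested (9.49% higher, 9.33% lower). It read 96.2 to 136.4 (median 111.8) in glioma against 33.6 to 76.1 (median 53.7), a difference of 0.93 ± 0.22 (limma adjusted p = 0.00086), though its second probe set differed by only 0.05. Srebf1 had a median of 597 (251.9 to 1406) against 267.1 and was not called (0.80 ± 0.38, limma adjusted p = 0.080). Of the 6 gliomas 5 were above the normal median, and B7, at 251.9, was not; without B7 the difference was 1.02 and passed. Insig1 ran from 298.2 to 594.8 (median 361.3) and was not called (0.09 ± 0.19); its sign turned under 5 of the alternatives tried.

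Fads2, the first desaturase of the polyunsaturated branch, was the second largest rise. It read 239.2 to 781.9 (median 379.4) in glioma against 102.1 to 281.3 (median 164.8) in normal brain, with B1 alone inside the normal range. The difference was 1.18 ± 0.22 (limma adjusted p = 7.1e-05), and the 2 other probe sets gave 1.19 and 1.15. Elovl6 was higher by 0.58 ± 0.19, Fasn by 0.58 ± 0.17 and Acly by 0.46 ± 0.15 (limma adjusted p = 0.013, 0.0042 and 0.012). Scd1 was not called (-0.54 ± 0.42), and its gliomas ran from 240.7 in B1 to 1763 in A4. Scd2 (0.21 ± 0.16), Fads1 (0.05 ± 0.24), Elovl5, Acss2 and Acaca were not called either. Among the 4 gliomas that share a code with a normal brain, Dhcr7, Fads2, Mvk, Mvd, Fasn and Acly were higher in 4 of 4. Srebf2 was too, which followed from its ranges not meeting. Scd1, Fdft1, Sc5d and Ggps1, none of them called, were lower in 4 of 4, with medians of -1.36, -0.90, -0.38 and -0.16. How many of all genes had 1 direction in 4 of 4 is not given here.

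**Figure D3:**
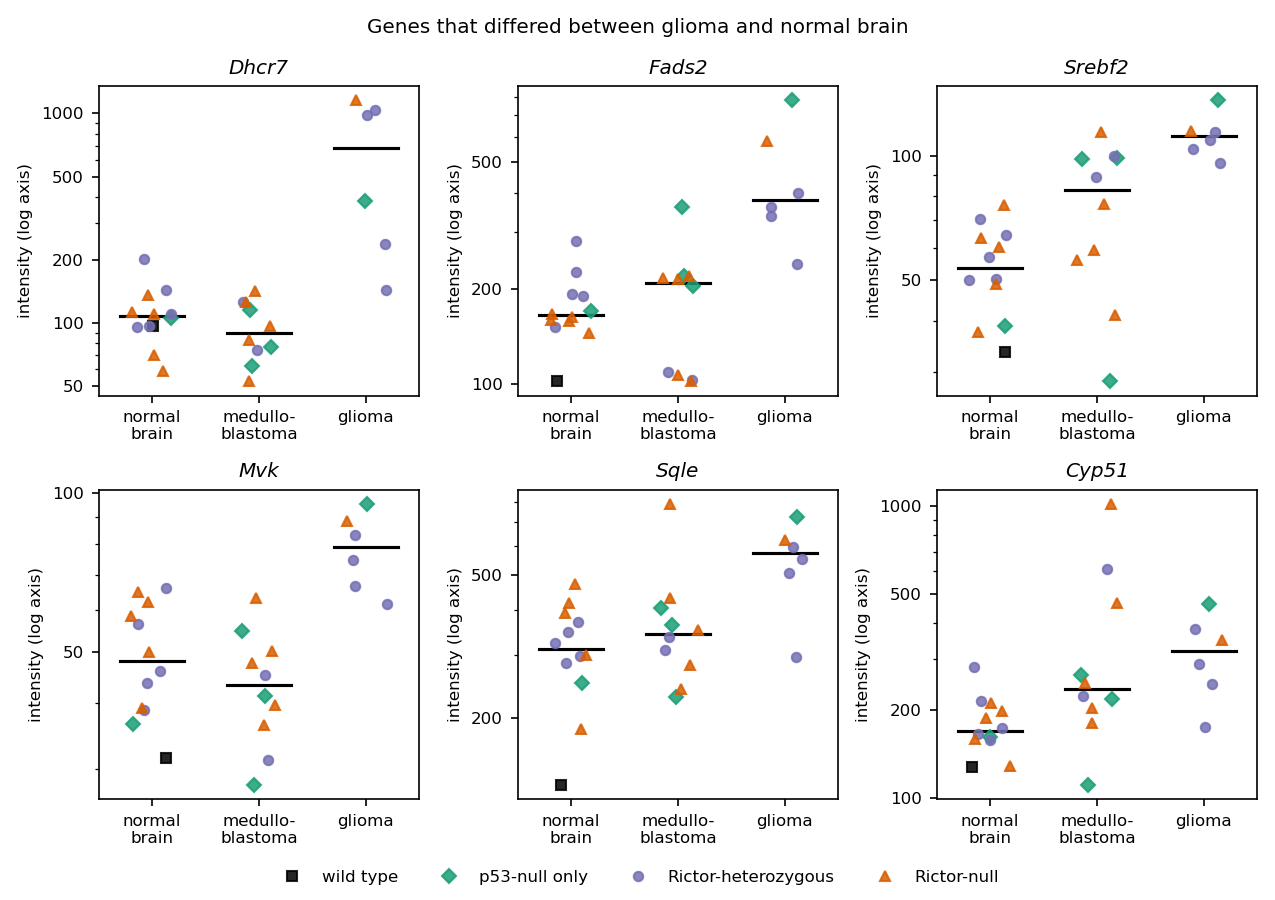
Each point is the intensity of 1 array on a log axis, by tissue and genotype, and the black line is the median of the tissue. Dhcr7, Fads2, Srebf2, Mvk and Sqle are higher in glioma with at most 1 glioma among the normal values, Srebf2 with none, and Cyp51 overlaps more.

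In glioma the oligodendrocyte precursor markers stood apart: 8 of 8 were higher than in normal brain, with sums of 10130 to 16720 (median 15470) against 713.7 to 2917 (median 1366). Pdgfra, the receptor that defines these precursors, had a median of 3881 against 332.5. Of 10 mature oligodendrocyte markers 7 were lower and 1 was higher (sums of 5346 to 19510 against 5658 to 20200), of 10 astrocyte markers 4 were lower (5916 to 17350 against 13540 to 21910), 8 of 8 mature neuron markers were lower and 6 of 6 proliferation markers were higher. All 4 forebrain neuron markers were lower (medians of the sums 75.6 and 1966), as were all 4 choroid plexus markers (44.25 and 5899), 2 of 6 microglial markers were higher, 1 of 4 endothelial markers was lower and 0 of 7 granule lineage markers were called. The part of these markers in the differences above was not tested. With median centring the split was 8 higher and 3 lower. Within the YZ arrays (4 gliomas, 5 normal brains) 4 genes were higher and 0 lower, and within YZ2 (2 and 7) 3 and 0; Dhcr7 was among those higher in both (1.64 and 2.98), and so was Fads2 (1.12 and 0.95). Of the 13926 genes tested, 5307 were called within YZ and 3381 within YZ2, against 7531 over all arrays.

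**Figure D4:**
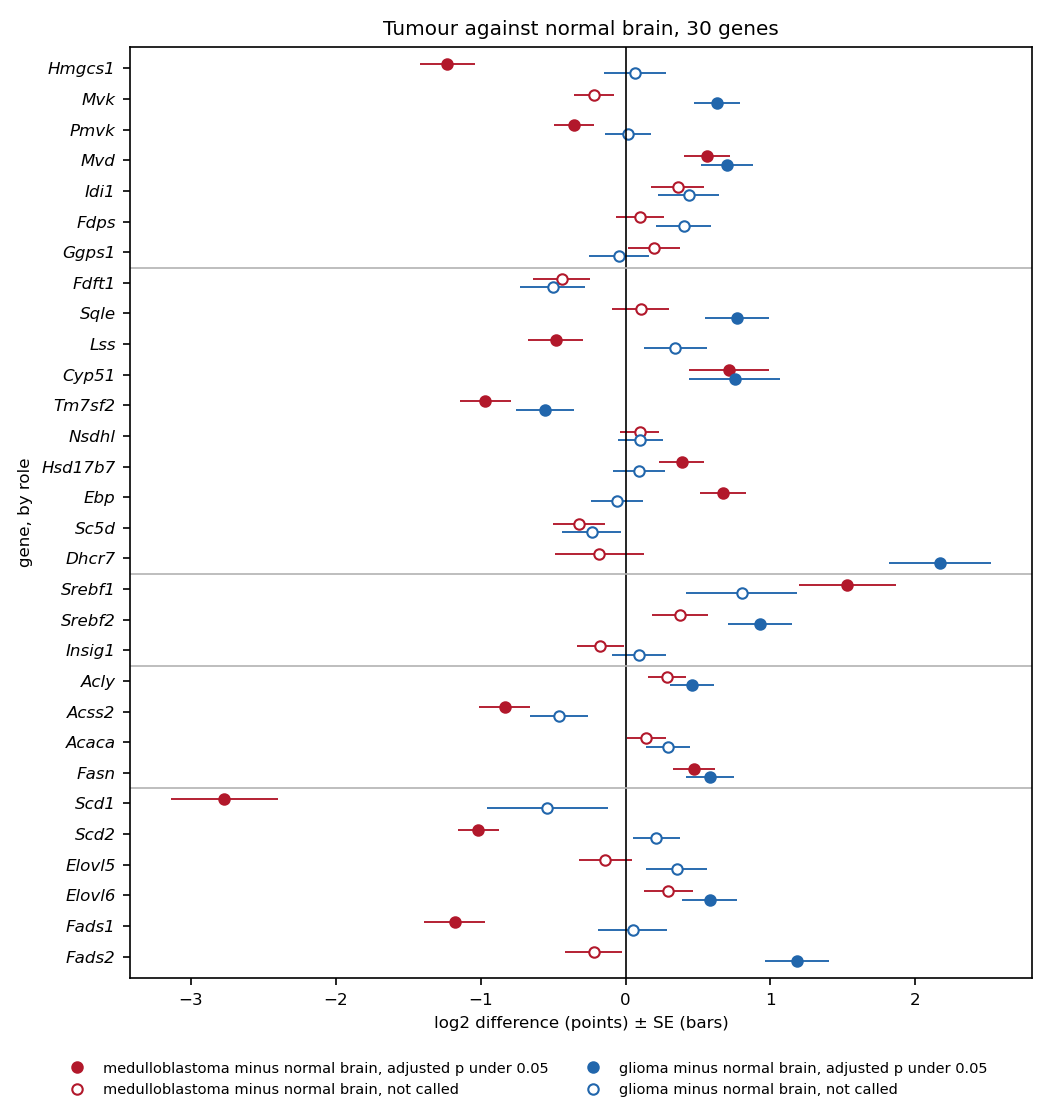
Points are the log2 differences of medulloblastoma (red) and glioma (blue) from normal brain for the 30 genes by role, bars are the standard error, and filled points have a limma adjusted p under 0.05. Red lies far left of blue at Hmgcs1, Scd1, Scd2 and Fads1, blue far right of red at Dhcr7 and Fads2, and both lie close together at Mvd, Cyp51 and Fasn.

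The 2 tumours were then compared directly. Of the 30 genes 9 were lower in medulloblastoma than in glioma, 1 was higher and 20 were not called, where 28.5% of all genes tested were called, 13.7% higher and 14.8% lower. The median log2 difference was -0.29 over the 30 genes, 25 of them below 0, and 0.01 over all genes. The 9 lower genes were 2 mevalonate genes, 3 from squalene to cholesterol and 4 desaturases. Dhcr7 differed most (-2.35 ± 0.37, limma adjusted p = 2.7e-05), with 52.6 to 141.5 in medulloblastoma and 143.7 to 1159 in glioma. Dhcr7 and Scd2 were the 2 genes whose ranges did not meet, which held for 6.20% of all genes tested (2.63% higher, 3.57% lower), and the highest medulloblastoma for Dhcr7 (C1, 141.5) lay just under the lowest glioma (B1, 143.7).

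Of the 6 desaturases and elongases 4 were lower in medulloblastoma than in glioma and 2 were not called: Scd1 by -2.23 ± 0.45, Fads2 by -1.40 ± 0.24, Fads1 by -1.23 ± 0.25 and Scd2 by -1.23 ± 0.17 (limma adjusted p = 0.00040, 5.4e-05, 0.00053 and 4.5e-06). Scd2 read 1144 to 3569 in medulloblastoma and 4148 to 6320 in glioma. Hmgcs1 differed by -1.30 ± 0.23 and Mvk by -0.85 ± 0.17 (limma adjusted p = 9.9e-05 and 0.000395). Lss (-0.82 ± 0.23) and Sqle (-0.67 ± 0.24) were also lower (limma adjusted p = 0.0085 and 0.035). The call for Lss ended without glioma A4 (-0.62) and with its probe sets averaged, and its 2 other probe sets gave -0.15 and -0.05, neither called. The call for Sqle ended when any of 7 arrays was left out (-0.51 to -0.65), namely gliomas A4, B3, B7 and C3 and medulloblastomas A3, B4 and C4. Ebp was the 1 gene higher in medulloblastoma (0.73 ± 0.19, limma adjusted p = 0.0047), at 132.9 to 419.9 against 120.4 to 166.7. Srebf1 was not called (0.73 ± 0.41), nor was Srebf2 (-0.55 ± 0.23) or Insig1 (-0.27 ± 0.20). Of the markers, all 8 of the oligodendrocyte precursor were lower in medulloblastoma, 4 of 10 were lower for mature oligodendrocytes and for astrocytes, and 6 of 7 were higher for the granule lineage. Of the mature neuron, forebrain neuron, proliferation and choroid plexus markers 1 of each list was higher, and 0 microglial or endothelial markers were called. The part of these markers was not tested. Within the YZ arrays (5 and 4) 4 genes were lower and 0 higher, and within YZ2 (5 and 2) 7 and 0, where 1873 and 1118 of all genes tested were called.

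Across the 3 tissue comparisons 21 of the 30 genes were called at least once, where 76.4% of all genes tested were. The 9 called in none were Idi1, Fdps, Ggps1, Fdft1, Nsdhl, Sc5d, Insig1, Acaca and Elovl5. Against normal brain, 4 genes were called in the same direction in both tumours, Mvd, Cyp51 and Fasn higher and Tm7sf2 lower, and 0 were called in opposite directions. Both comparisons rest on the same normal brains.

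Within a tissue the genes varied about as much as any gene did. The median standard deviation on the log2 scale was 0.442 over the 30 genes and 0.438 over all genes in medulloblastoma, 0.393 and 0.377 in glioma, and 0.331 and 0.332 in normal brain. The gene with the widest spread was Scd1 in medulloblastoma (1.14), Dhcr7 in glioma (1.25) and Fdft1 in normal brain (0.616). Single arrays led many of the 30 genes at once, and how often each array led over all genes is not given here. Medulloblastoma A6, which was p53-null only, was the highest of the 10 medulloblastomas for all 6 desaturases and elongases, and its astrocyte marker sum of 10250 was also the highest. Medulloblastoma C2, Rictor-null, was the lowest for Scd1, Scd2 and Fads1 and had the lowest astrocyte sum, 1916. The mature oligodendrocyte marker sum was highest in B6 (4866) and lowest in A5 (398.6), with A6 at 1485 and C2 at 902.0, against a median of 1144. Medulloblastoma C5, with Scd1 at 41.3, had an astrocyte sum of 3796, against a median of 3524. Among the gliomas A4 was the highest for 16 of the 30 genes and B1 the lowest for 16, including 5 of the 6 desaturases and elongases. The astrocyte sum of the gliomas was highest in B3 (17350) and lowest in C3 (5916), with A4 at 12470 and B1 at 7252. Among the normal brains B2 was the highest for 11 genes, and the wild-type Z2 the lowest for 13. Z2 and B2 also had the 2 highest actin 3' to 5' ratios (6.21 and 6.01). The part of RNA quality and of cell types in these ranks was not tested.

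Rictor genotype was compared within each tissue. None of the 30 genes was called by limma in the 4 comparisons with at least 2 arrays a group. Rictor-null against p53-null-only medulloblastomas gave 0 of 30 (0.00718% of all genes were called), with 0 at an unadjusted p under 0.05. Rictor-null against heterozygous medulloblastomas gave 0 (0.00718%), with 1 at an unadjusted p under 0.05. Rictor-null against heterozygous normal brain gave 0 (0.0% of all genes), with 1, and a test of whether loss of Rictor acted differently in the 2 tissues, null against heterozygous in medulloblastoma minus the same in normal brain, gave 0 (0.0%), with 1. The single Rictor-null glioma was set against 4 heterozygous ones with its spread taken from the other groups, which gave 0 (0.0215%), with 0. The median log2 differences of the 30 genes were, in this order, 0.19, 0.13, -0.02, 0.12 and -0.01. Over all genes tested they were 0.057, 0.010, 0.007, 0.004 and -0.037. The shares of all genes at an unadjusted p under 0.05 (limma) were 4.34%, 1.41%, 3.17% and 1.85% in the first 4 comparisons.

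The genes with the smallest p in these comparisons were chiefly Fads2 and Acss2. Fads2 read 144.8 to 166.8 in the 5 Rictor-null normal brains and 151.0 to 281.3 in the 5 heterozygous ones, where only B2 lay within the Rictor-null range. The difference was -0.35 ± 0.15 (limma adjusted p = 1.0). In medulloblastoma it read 102.7 (C6), 107.0 (C2), 214.5 (C1), 216.4 (C5) and 218.6 (C4) in the Rictor-null tumours, 102.9 and 109.1 in the 2 heterozygous ones, and 203.0, 219.0 and 359.5 in the 3 p53-null-only ones. Rictor-null C2 and C6 read like both heterozygous tumours, and C1, C4 and C5 lay near 2 of the p53-null-only ones. Of these tumours C2, C6 and the heterozygous B4 and B6 carry the title prefix YZ2, as does A3, and C1, C4, C5, A5 and A6 carry YZ. With both heterozygous medulloblastomas in YZ2, genotype and prefix cannot be fully told apart where Rictor-null and heterozygous medulloblastomas are compared. For Fads2 the effect in medulloblastoma minus that in normal brain was 0.94 ± 0.38 (limma adjusted p = 1.0). Acss2 read 132.9 to 227.9 in Rictor-null medulloblastomas, above both heterozygous ones (74.1 and 128.5) and above A3 (97.7) and A5 (87.4) but not A6 (148.4) of the p53-null-only ones. Its differences were 0.73 ± 0.33 and 0.59 ± 0.29 (limma adjusted p = 1.0 and 0.982). In normal brain Acss2 differed by 0.02 ± 0.21. Hsd17b7 (0.52 ± 0.26 against p53-null only) and Mvd (0.56 ± 0.36 against heterozygous medulloblastomas) were next.

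Scd1 spread widely within every medulloblastoma genotype, 30.8 to 263.1 in Rictor-null, 140.6 and 250.1 in heterozygous and 85.6 to 445.3 in p53-null-only tumours, and its differences of -1.04 ± 0.79 and -0.88 ± 0.69 were not called. In the Rictor-null glioma C3, Dhcr7 read 1159, Fads2 582.2 and Ggps1 87.0, against 143.7 to 1035, 239.2 to 397.9 and 124.8 to 150.1 in the 4 heterozygous gliomas, all outside that range and none called (1.40 ± 0.75, 0.82 ± 0.40 and -0.64 ± 0.45). That glioma is a single array with no spread of its own, so these values show neither a genotype effect nor its absence.

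**Figure D5:**
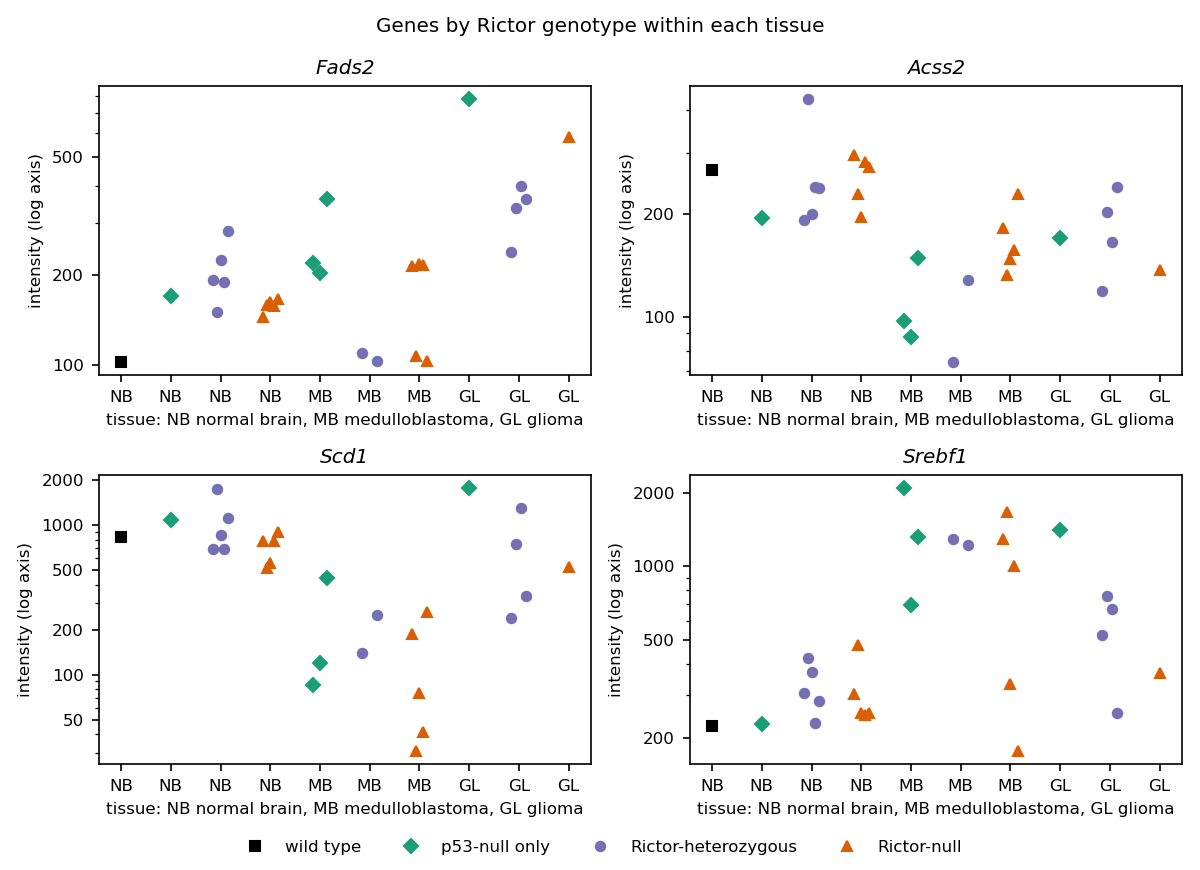
Each point is the intensity of 1 array on a log axis for 4 genes, by tissue and by genotype within it. Fads2 in Rictor-null medulloblastomas runs from 102.7 to 218.6, Acss2 in Rictor-null medulloblastomas lies above both heterozygous ones, and the genotypes overlap for Scd1 and for most of Srebf1.

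Other genes of the pathway were read from a fixed list, of which 26 had a value. In medulloblastoma 5 were higher than in normal brain, 14 were lower and 7 were not called, where 64.4% of all genes tested were called. The largest falls were those of Cyp46a1, the neuronal enzyme that clears cholesterol (-3.28 ± 0.31, limma adjusted p = 1.3e-09), Fads6 (-2.02 ± 0.38), Acsbg1, a brain acyl-CoA synthetase (-1.93 ± 0.41), and Acsl3, another acyl-CoA synthetase (-1.71 ± 0.18), with adjusted limma p of at most 0.00021. Npc2, which carries cholesterol out of lysosomes, rose by 1.22 ± 0.13 and Fads3 fell by 1.43. Mbtps2 and Mbtps1, the proteases that release SREBPs, named here after their values were seen, were higher by 0.94 ± 0.13 and 0.52 ± 0.15 (limma adjusted p = 6.8e-07 and 0.0035), while Scap, their escort, was not called. In glioma 6 were higher, 5 were lower and 15 were not called, where 54.1% of all genes were called. Elovl1, an elongase of very long chains, rose by 1.29 ± 0.22, the cholesterol exporter Abca1 by 1.22 ± 0.20 and Npc2 by 1.11 ± 0.15 (limma adjusted p at most 2.7e-05). Cyp46a1 fell by 2.76, the elongase Elovl4 by 1.14 and Insig2 by 1.07. Between the tumours 3 were higher in medulloblastoma, 13 were lower and 10 were not called, where 28.5% of all genes were called. Acsbg1 (-1.84 ± 0.50), the mitochondrial carboxylase Acacb (-1.50 ± 0.35), Fads6 (-1.26 ± 0.46), malic enzyme Me1 (-1.20 ± 0.28), Elovl7 (-1.19 ± 0.38) and Acsl3 (-1.05 ± 0.22) were lower and Mbtps2 was higher (0.99 ± 0.16). In the 4 genotype comparisons with at least 2 arrays a group, 0 of the 26 were called by limma, with 0, 1, 1 and 0 at an unadjusted p under 0.05. Of all genes tested 4.34%, 1.41%, 3.17% and 1.85% were at an unadjusted p under 0.05 there.

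The 30 genes had 71 probe sets, 9 genes having 1 only, and 35 further ones besides the brightest passed the filter on dim values. In the comparison of medulloblastoma with normal brain 26 of these 35 had the direction of the brightest one, in glioma against normal brain 32 and between the tumours 30. No gene had probe sets called in opposite directions in 1 comparison. For Hmgcs1 in medulloblastoma 3 of the further probe sets gave -1.01, -1.01 and -1.21 and the dimmest gave 0.03, and for Acss2 and Fads1 a dim further probe set gave 0.02 and 0.16. Besides Srebf2, 6 genes had a further probe set called in medulloblastoma against normal brain where the brightest was not. Elovl6 had one at 0.93 (limma adjusted p = 0.00029), Acly had 2, at 0.47 and 0.38, and Mvk had one at 0.45, against -0.22 by its brightest. Sc5d had one at -0.70, Fdft1 one at -0.48, and Ggps1 one at -0.56, against 0.20 by its brightest. In glioma against normal brain the further probe sets called where the brightest was not were those of Fads1 (0.61, limma adjusted p = 0.0057), Lss (0.46, 0.017) and Ggps1 (-0.46, 0.025). Between the tumours they were those of Sc5d (-0.99, limma adjusted p = 0.0097) and Srebf2 (-0.75, 0.012).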

How the data were processed

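Each of 28 samples was 1 Affymetrix Mouse 430 2.0 array. The deposited values are MAS5 intensities per probe set on a linear scale, with MAS5 and GCOS named per the submitters' processing notes and their versions not given in the sources used here. Every array had a 2% trimmed mean of 100, a test on the values, so a difference is relative to the array's total. The array medians were 18.7 to 27.7. No detection calls were used. The series' design text counts 22 medulloblastomas and 24 normal brains, and those beyond the 28 arrays are not analysed here.

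Of 45101 probe sets, 34945 were annotated to 1 symbol, 932 to several and 9224 to none listed here, and 64 control probe sets were left out. The brightest probe set stood for each of 18193 genes. Levels were log2(intensity + 6.3), the pseudocount being the 25th percentile of all values, so differences understate the change of dim genes. Genes above the 30th percentile of mean level (13926) were tested with limma 3.58.1 in R 4.3.3 (lmFit, eBayes with trend, two-sided, Benjamini-Hochberg over all genes tested, called at an adjusted p under 0.05). Tissues were compared in 1 additive model of tissue and genotype over all arrays, in which the wild-type Z2 has a genotype term of its own and adds nothing to the tissue differences. Genotypes were compared within the 10 medulloblastomas and within the 12 normal brains, and for glioma and for the difference between tissues in 1 model that gave every group its own mean. Tables were made with pandas 2.3.3 and numpy 2.4.6 and plots with matplotlib 3.10.9, under Python 3.11.15. Tested on simulated data for medulloblastoma against normal brain over 13926 genes, the fit recovered 80 of 100 genes changed by 1 on the log2 scale and 98 of 100 changed by 2, with 8 false calls. The simulated noise was normal and independent between genes and arrays, and few genes were changed, where 64.4% were called in the data. These rates therefore need not hold for the data.

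The genes, the lists and the tests were chosen with earlier results of these data known. In a tissue comparison the 6 largest called rises and falls and the 3 regulators are given by array. In a genotype comparison the genes with the smallest p are named, and of other pathway genes the 6 largest called changes. Pseudocount, filter, scaling, probe set choice, model terms, array weights, replicate block, title prefix and left-out arrays were varied.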

Additional observations from a re-analysis of the deposited data

Results flagged for a closer look

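In groups of 4 to 10 arrays, 180 combinations of gene and group were examined for a single array far from the rest, and 19 stood apart. The rule, the gap over the range of intensities, marks about 1 in 20 where values spread normally, which intensities need not do. Some groups also share arrays, and no share over all genes is given here. The count of 19 is therefore only a description. In medulloblastoma, Sqle was 790.0 in C1 against 227.9 to 432.0 in the others, Tm7sf2 was 92.1 in A3 against 26.1 to 56.6, and Fads2 was 359.5 in A6 against 102.7 to 219.0. Within the Rictor-null medulloblastomas, Ebp was 353.0 in C2 and Sc5d was 279.1 in C4, both above the other 4.

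Among the gliomas, A4 stood high for Mvd (151.3 against 56.7 to 86.0) and Nsdhl (284.6 against 181.9 to 204.1). B1 stood low for Sc5d (70.5 against 191.0 to 227.1) and Elovl5 (454.1 against 1148 to 1483). Within the heterozygous gliomas, Ebp was 166.7 in B2 and Fasn was 908.3 in B1, above the other 3.

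Of the 8 cases in normal brain 5 were B2 among the heterozygous brains: Insig1 at 646.5, Acly at 1563.8, Acss2 at 431.5, Fasn at 534.9 and Scd2 at 5977.9. Among the Rictor-null brains C5 stood high for Ebp (276.5) and Scd2 (4836.9) and C2 for Srebf1 (477.7 against 247.4 to 302.6). B2 and C5 are 2 of the 3 normal brains with high Gabra6.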

How the results depend on the processing

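Of the 35 tissue differences called among the 30 genes, 34 kept their direction under every alternative run and 10 also kept their call: Hmgcs1, Scd1, Scd2, Srebf1 and Tm7sf2 in medulloblastoma and Dhcr7 and Fads2 in glioma against normal brain, and Dhcr7, Fads2 and Scd2 between the tumours. The exception in direction was Lss in medulloblastoma, at 0.025 with its probe sets averaged, and Srebf2, not called there, went to -0.16. Insig1 in glioma, not called, went to -0.0060 with median centring, -0.31 with the replicate block over paired arrays only, -0.083 within the YZ arrays, and -0.013 to 0.20 with 1 array left out. No cause was tested.

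In medulloblastoma against normal brain, the genes called higher were 3 with median centring, 2 within YZ and 3 within YZ2, and 4 were called lower within YZ. In glioma against normal brain, 3 were called higher with the replicate block over paired arrays only, 4 within YZ and 3 within YZ2. The genes called lower there were 3 with median centring, with the mouse code as a random replicate block and with array weights; they were 2 with a pseudocount of 32, with tissue only, with the replicate block over paired arrays only, without normal brains B2, C5 and Z2, without medulloblastomas B6 and C6, and without medulloblastomas A3 and C5 (chosen after seeing the data). They were 0 within YZ, within YZ2 and with the actin ratio as a term. Between the tumours, 0 were called higher within YZ and within YZ2, and 4 lower within YZ. With 1 array left out, the genes called higher and lower were 4 to 8 and 6 to 9 in medulloblastoma, 9 to 12 and 0 to 2 in glioma, and 1 to 2 and 7 to 10 between the tumours, and the genotype comparisons stayed at 0.

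Codes shared by a tumour and a normal brain are not stated to mark 1 animal, and for A6, B4 and C1 the title prefixes differ. Deviations of such arrays from their group means correlated at -0.038 to 0.322 over 9 codes, not all above 0.1. These values cannot decide on pairing, since arrays of different codes were not correlated beside them. The 2 heterozygous medulloblastomas also deviate as mirror images of each other. The code was not taken as a pairing, as the labels do not state one. With it as a random replicate block medulloblastoma had 7 genes higher and 9 lower, glioma 10 and 3, and the tumours 1 and 9. Arrays per group, down to 1 Rictor-null glioma, limit the precision.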
